A study of Mus musculus with 264 samples.

Results

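Neurospheres of culture Set-A exposed to 70 mM ethanol were compared with unexposed neurospheres of the same set. Members were taken from the sample labels, which gave 33 neurospheres at 70 mM and 34 at 0 mM, together 67 of the 264 in the series. All came from C57/Bl6 mouse fetuses, from dorsal telencephalon dissected at gestational day 12.5, with cells pooled from whole litters. Cultures grew as non-adherent aggregates in medium with bFGF, EGF and LIF, and were assigned to control or ethanol at random per the labels' protocols. Ethanol was the only stated difference between the groups, and media were sampled at days 0, 3 and 5, the last before collection. The sample labels and the protocol name the dose 70 mM, whereas the series design names it 75 mM. In the labels the stage goes up by a small step with each sample, and the day given here is that of the tissue source. Run 1 of the assay held 11 neurospheres of each dose, and run 2 held 23 at 0 mM and 22 at 70 mM. Because Set-A is 1 culture set, its neurospheres share their source, and p-values measure the spread between neurospheres, not between cultures.

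A neurosphere is a free-floating ball of dividing neural stem and progenitor cells, kept in that state by mitogens such as bFGF and EGF, together with cells that have begun to mature. Cells of the fetal dorsal telencephalon give rise to the projection neurons of the cerebral cortex. Ethanol is a teratogen that affects growth of the fetal cortex, and neurospheres are used as a culture model of its progenitors. The study's title places ethanol's effect in the molecular states of single neurospheres.

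Each neurosphere was imaged, lysed whole and assayed by microfluidic RT-qPCR over 30 amplification cycles. The deposited value is a cycle number (Ct), an inverted log2 scale on which a lower number means more product. The design names 96 genes and 75 coded assays were analysed. No file pairs the codes with genes and 0 of the 75 codes were found in the mouse gene table, so assays are given by code, few are named, and markers of the tissue or of other cell types could not be looked up. In Set-A at these doses, cycle numbers ran from 2.5 to 26.8, and 489 of 5025 values (9.73%) were missing and read as not detected. The relative level of an assay is the neurosphere's mean cycle number over 50 reference assays, those detected in at least 95% of the series, minus the assay's own cycle number. Reference assays that a neurosphere did not detect are left out of its mean, so the mean can cover fewer than 50. A relative level of 1 unit is 1 doubling if each primer pair doubles its product in every cycle. A whole neurosphere holds many cells, so fewer cells of a type and less RNA per cell cannot be told apart.

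Exposure to 70 mM ethanol was accompanied by higher relative levels of 9 assays and lower levels of 9 others. These 18 of 72 tested assays are the 25% called by limma with Benjamini-Hochberg adjusted p under 0.05 and run as a covariate; 27 had an unadjusted p under 0.05. The 9 that rose did so by 0.80 to 2.43 log2 units, with a median of 1.54. The 9 that fell changed by -0.91 to -3.89, with a median of -1.71. Over all 72 assays the median change was -0.01, with 35 higher and 37 lower, and the median size of a change was 0.58. Without centring on the mean cycle number the median assay changed by -0.75 and 5 assays passed, 0 higher and 5 lower, so both directions here are relative to that shift. Of the 9 assays that rose, 6 were detected in all 67 neurospheres and 3 in under 95% of them. Of the 9 that fell, 7 were detected in under 95%. A level is measured only where an assay was detected, so those 10 changes describe the neurospheres that detected them.

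Changes were smaller among abundant assays. The 72 assays were divided into 3 bins of 24 by mean cycle number. In the most abundant bin, with mean cycle numbers of 7.43 to 14.1, 2 assays rose, 0 fell by the limma test and the median size of a change was 0.28. In the middle bin, 3 rose and 4 fell, and the median size was 0.57. Among the rarest assays, with mean cycle numbers of 16.7 to 21.3, 4 rose and 5 fell, and the median size was 0.98. Precision followed the same order, with a median standard error of 0.27 in the abundant, 0.36 in the middle and 0.48 in the rare bin.

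The assay with the largest rise was A038. In run 1 its relative level was -6.05 at the lowest, -4.16 at the median and -2.77 at the highest at 0 mM, against -4.46, -1.45 and 1.22 at 70 mM. In run 2 the corresponding levels were -6.23, -3.33 and -1.64 at 0 mM, against -4.37, -1.22 and 2.55 at 70 mM. The groups overlapped, with most exposed neurospheres above the unexposed range: 8 of 11 exposed neurospheres in run 1 and 16 of 22 in run 2 lay above every unexposed one of their run. The change was 2.43 log2 units (SE 0.31, limma adjusted p = 3.00e-09), a 5.40-fold difference. It was 2.54 (SE 0.62, limma adjusted p = 0.0110) in run 1 and 2.38 (SE 0.35, limma adjusted p = 1.13e-06) in run 2.

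A025 rose by nearly as much. Its relative level in run 1 was -4.86, -2.44 and -0.11 at 0 mM (lowest, median and highest) and -2.19, -0.37 and 2.89 at 70 mM. In run 2 it was -2.86, -1.11 and 1.32 at 0 mM and -0.77, 1.02 and 3.94 at 70 mM. The groups overlapped, but 11 of 11 exposed neurospheres in run 1 and 22 of 22 in run 2 lay above the unexposed median of their run. The change was 2.18 (SE 0.31, limma adjusted p = 4.95e-08), or 4.53-fold, with 2.52 in run 1 and 2.01 in run 2. Without centring on the mean cycle number neither rise passed the test: A038 changed by 1.66 (SE 0.74, limma adjusted p = 0.182) and A025 by 1.41 (SE 0.81, limma adjusted p = 0.256). The calls for both assays are therefore calls about levels relative to the other assays of the same neurosphere.

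A034 was the single assay that fell with detection in at least 95% of the neurospheres and the same direction in both runs. Its relative level in run 1 was -1.96, -1.22 and -0.45 at 0 mM and -3.37, -2.06 and -0.96 at 70 mM. In run 2 it was -3.46, -0.67 and 0.31 at 0 mM and -4.18, -1.90 and 1.04 at 70 mM. Exposed neurospheres sat lower but within much of the unexposed range, with 6 of 11 in run 1 and 4 of 21 in run 2 below every unexposed one. The change was -0.91 (SE 0.27, limma adjusted p = 0.0109). Neither run passed alone, with limma adjusted p = 0.141 in run 1 and 0.0667 in run 2. The call was also lost when the missing values of this assay were set to 30 cycles, which gave -0.37 (limma adjusted p = 0.685). It was lost as well without centring, at -1.67 (limma adjusted p = 0.182), and among neurospheres in the range of mean cycle number that both doses of their run covered, at -0.57 (limma adjusted p = 0.194).

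**Figure D1:**
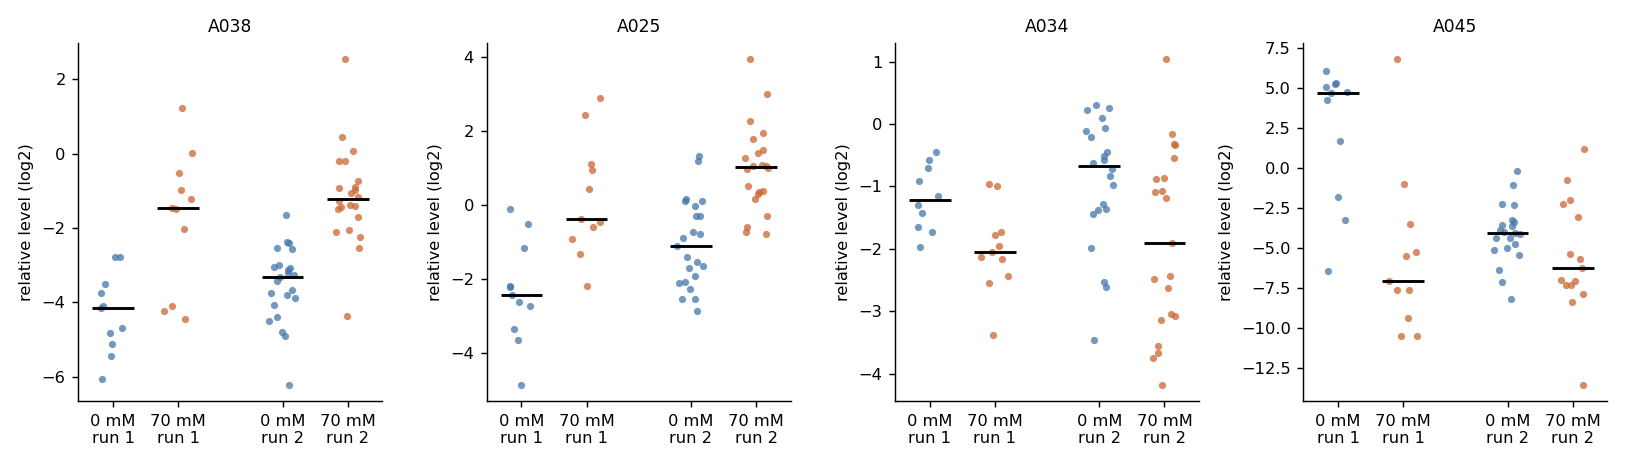
Relative level (log2 units, y axis) of assays A038, A025, A034 and A045 in each Set-A neurosphere, by ethanol dose and run; points are neurospheres that detected the assay and bars are medians. A038 and A025 are higher at 70 mM in both runs, and A034 is lower with broad overlap. A045 in run 1 has a high cluster, mostly at 0 mM, with the other values spread below it.

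A045 had the largest change of all, and was chosen after its values were seen because it falls outside the naming rule. In run 1 its level was -6.45, 4.68 and 6.02 at 0 mM and -10.5, -7.06 and 6.80 at 70 mM. In run 2 it was -8.20, -4.05 and -0.20 at 0 mM, in 21 of 23 neurospheres, and -13.6, -6.23 and 1.19 at 70 mM, in 15 of 22. Run 1 levels at 0 mM held a high cluster, with the others spread at 1.65, -1.80, -3.25 and -6.45. In that run, 7 of 11 neurospheres at 0 mM and 1 of 11 at 70 mM gave product before cycle 10. That limit was set after the values were seen. No run 2 neurosphere gave product before cycle 10, and the earliest there was at cycle 17.1. The combined change of -3.89 (SE 0.99, limma adjusted p = 0.00407) therefore rested mainly on run 1, where it was -7.87 (SE 1.83, limma adjusted p = 0.0110). Run 2 alone gave -1.40 (SE 0.88, limma adjusted p = 0.256). The difference between the runs was 6.47 (SE 1.87), with a limma p = 0.00102 before and 0.0732 after adjustment over the assays. Without centring the combined change was -4.65 (SE 0.76, limma adjusted p = 4.08e-06). In run 2 the median cycle number, where A045 was detected, went from 19.1 at 0 mM to 21.6 at 70 mM. At the other doses of Set-A in run 1, product before cycle 10 was seen in 1 of 11 neurospheres at 25 mM and 6 of 11 at 100 mM.

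The runs gave calls that overlapped in part. Run 1 alone called 9 of 72 assays (12.5%), of which 2 rose and 7 fell, and run 2 alone called 15 (20.8%), of which 9 rose and 6 fell. Of the 18 combined calls, 5 were called in run 1 and 11 in run 2. A038 and A025 were the only assays called in the same direction in each run alone. Direction was shared more widely. Of the 18 called assays, 16 moved the same way in both runs, all 9 that rose and 7 of 9 that fell. They were called on both runs together, which favours assays whose runs agree. Among all 72 assays, 49 moved the same way. The dose by run interaction passed for 0 of 72 assays (0%) in limma, while 14 had an unadjusted p under 0.05. Across assays, which are not independent replicates, the changes of the runs had a Pearson r of 0.41 and a Spearman rho of 0.42.

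**Figure D2:**
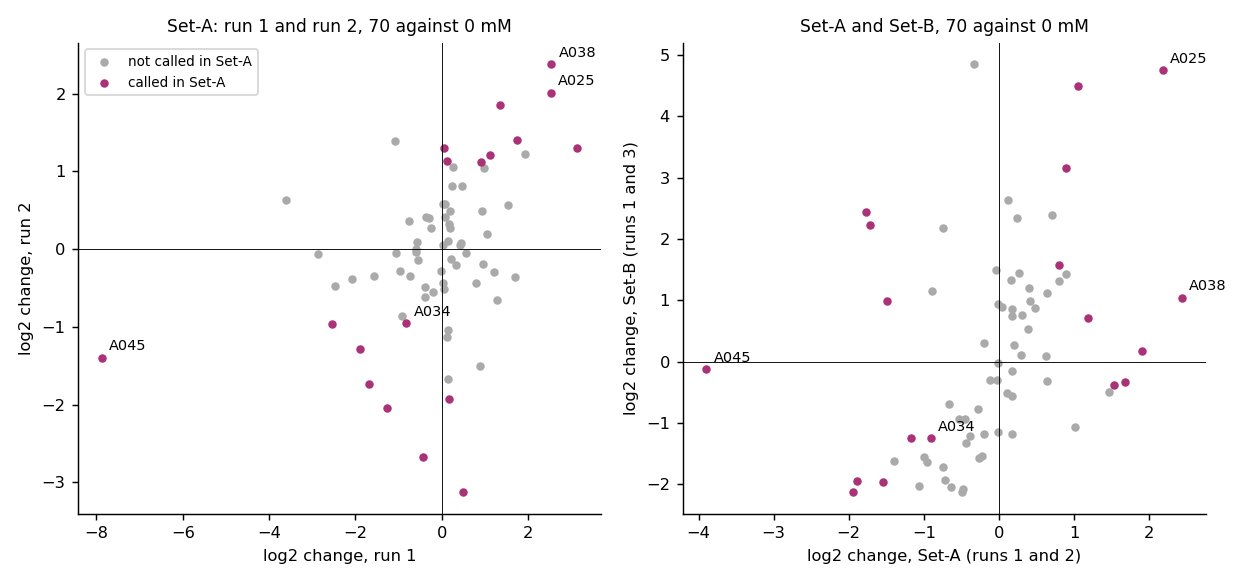
Log2 change in relative level at 70 against 0 mM for the 72 tested assays, run 1 (x) against run 2 (y) on the left and Set-A (x) against Set-B (y) on the right; purple points are the 18 assays called in Set-A. A038 and A025 lie high on both axes of the left plot, and 2 called assays lie in quadrants where the runs disagree.

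The 70 mM change differed between culture sets for 34 of 72 assays (47.2%, limma adjusted p under 0.05), 18 with Set-A above Set-B and 16 below. The sets shared only run 1, and the p-values of this comparison measure the spread between neurospheres, not between cultures. Without centring, 63 differed, 0 with Set-A above and 63 below, and with centring on the median 25 differed, 1 above and 24 below, so the split by direction changed with the scaling. Of the 34, 12 had opposite signs in the sets, 20 had the same sign with a smaller change in Set-A and 2 the same sign with a larger one. They include 11 of the 18 assays called in Set-A. For A038 the direction depended on the scaling. Its change in Set-B was 1.05 (SE 0.36) and the difference, Set-A minus Set-B, was 1.39 (SE 0.51, limma adjusted p = 0.0200). With centring on the median the difference was 0.69 (SE 0.53, limma adjusted p = 0.291), and without centring it turned to -1.86 (SE 1.08, limma adjusted p = 0.0964). The median cycle number of A038 went from 17.2 to 15.7 in run 1 and from 18.8 to 17.4 in run 2 of Set-A, and from 17.5 to 10.98 in run 1 and 17.3 to 13.9 in run 3 of Set-B. A025 rose less in Set-A under each of these scalings: its change in Set-B was 4.75 (SE 0.34) and the difference was -2.57 (SE 0.47, limma adjusted p = 1.82e-06), -3.29 with the median and -5.80 without centring. For A034 the change in Set-B was -1.24 (SE 0.26) and the difference of 0.34 (SE 0.37) did not pass (limma adjusted p = 0.473), whereas without centring it was -2.97 (SE 0.81, limma adjusted p = 0.000797). In Set-B, A045 was found in 1 of 11 unexposed and 10 of 11 exposed neurospheres of run 1, and in 0 of 23 and 0 of 22 of run 3. Its fitted change there rested on that 1 unexposed neurosphere, at -0.12 (SE 3.75), and the difference from Set-A was -3.83 (SE 3.87, limma adjusted p = 0.449).

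The levels at 70 mM can be read beside the other doses of Set-A, which share the same 0 mM neurospheres and are given without a test. The median relative level of A038 in run 1 was -4.16 at 0 mM, -2.03 at 25 mM, -1.45 at 70 mM and -3.31 at 100 mM. In run 2 it was -3.33, -1.32, -1.22 and -2.94 in the same order. In both runs the medians at 25 and 70 mM were the highest, and that at 100 mM was nearer the unexposed one. A025 was likewise highest at 25 and 70 mM: its medians in run 1 were -2.44, -0.69, -0.37 and -2.93, and in run 2 they were -1.11, 0.42, 1.02 and -0.36.

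The exposed neurospheres also differed along the main axis of joint variation. This axis is the first principal component of the 33 assays detected in all 67 neurospheres, computed without the dose labels after run means were removed, and it held 39.8% of their variance; its sign was set so that 70 mM is higher. In run 1 scores were -6.84, -2.80 and 6.25 at 0 mM (lowest, median and highest) and -5.40, -0.21 and 9.05 at 70 mM. In run 2 they were -8.73, -3.60 and 7.92 at 0 mM and -5.31, 2.52 and 11.2 at 70 mM. The groups overlapped widely, and the exposed medians were higher. The difference was 3.89 (SE 1.16, permutation p = 0.00134, 0.00469 adjusted over 7 measures of whole neurospheres). It did not pass in run 1 alone, at 2.20 (permutation p = 0.290), and was 4.72 (permutation p = 0.00185) in run 2. Without centring, the first component differed by 2.95 (permutation p = 0.452). Within run and dose, the centred scores had a Pearson r of -0.46 with mean cycle number. Of the 33 assays, A025 had the 2nd largest weight and A038 the 6th largest on this axis, so it shares its values with the level test and is no separate evidence.

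Detection changed for 1 assay. Of 27 assays detected in 5% to 95% of the neurospheres, 1 (3.7%) passed the exact conditional Mantel-Haenszel test over runs. This was A003, outside the naming rule and named after its values were seen. In run 1, 10 of 11 unexposed and 11 of 11 exposed neurospheres detected it, and in run 2, 9 of 23 and 19 of 22 did. The total went from 19 of 34 to 30 of 33. Weighted over runs, the rise was 34.7 percentage points (exact p = 0.000975, adjusted p = 0.0263), and it came mainly from run 2. Where A003 was detected, its relative level did not rise with its detection: the change was -1.39 (SE 0.59, limma adjusted p = 0.0730). In run 1, where nearly every neurosphere detected it, its level fell by 2.46 (SE 0.66, limma adjusted p = 0.0156), and in run 2 the change was -0.47 (limma adjusted p = 0.751). Among neurospheres of size group M, 5 of 10 detected A003 at 0 mM and 17 of 19 at 70 mM (exact adjusted p = 0.556), and 0 of 25 assays passed, with 0 at an unadjusted p under 0.05.

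**Figure D3:**
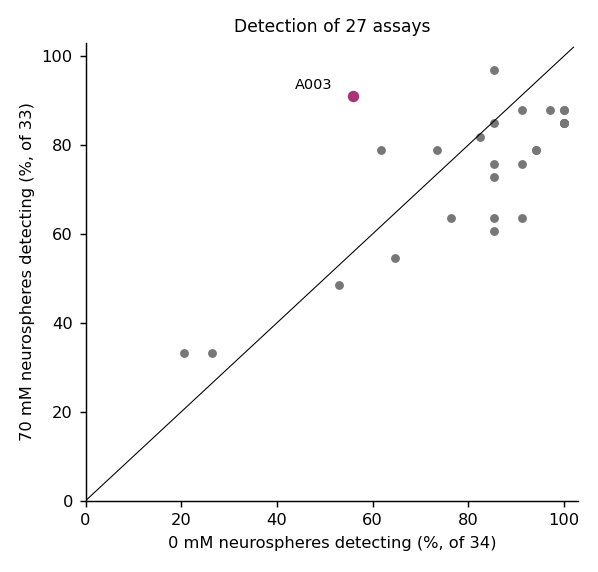
Share of Set-A neurospheres in which each of 27 assays was detected, in percent, at 0 mM (x, of 34) and at 70 mM (y, of 33); the line marks equal shares and the purple point is A003. Most points lie below the line, and A003 lies well above it.

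The other 26 detection differences did not pass. Shares were lower at 70 mM for 21 of the 27 assays and higher for 6, with a median difference of -12.1 percentage points. Unadjusted exact p-values were under 0.05 for 8 lower assays and 1 higher one, and the smallest adjusted p among the lower assays was 0.110. There were 6 assays that all 34 unexposed neurospheres detected and 28 or 29 of the 33 exposed ones did. Missing values made up 8.59% of the table at 0 mM and 10.9% at 70 mM. Among the 55 neurospheres in the range of mean cycle number that both doses of their run covered, an alternative added after seeing the data, 20 assays could be tested and their median difference in share was 1.39 percentage points. The same 20 assays had a median difference of -7.23 among all 67 neurospheres. This range leaves out 11 of the 33 exposed neurospheres by their mean cycle number, which moves with the number of detected assays.

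Overall signal did not differ beyond its spread. In run 1 the mean cycle number of the 50 reference assays was 8.92, 12.8 and 14.3 at 0 mM (lowest, median and highest) and 7.69, 13.2 and 16.3 at 70 mM. In run 2 it was 7.08, 14.9 and 18.0 at 0 mM and 8.24, 15.8 and 19.7 at 70 mM. The groups overlapped, with exposed neurospheres beyond the unexposed range at the late end in both runs, 3 in run 1 and 6 in run 2, and at the early end in run 1, where there were 2. The difference, weighted over runs, was 0.77 cycles (SE 0.63, permutation p = 0.224, adjusted p = 0.261). It was -0.16 in run 1 and 1.23 in run 2. With the runs pooled, the means were 13.7 ± 2.23 (SD, n = 34) at 0 mM and 14.5 ± 3.24 (SD, n = 33) at 70 mM.

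The number of detected assays followed the same pattern. It was 58, 72 and 73 of 75 at 0 mM and 59, 71 and 73 at 70 mM in run 1, and 63, 68 and 73 against 54, 68 and 73 in run 2. In run 2, 8 of 22 exposed neurospheres detected fewer assays than any unexposed one. The 6 exposed neurospheres of run 2 with the latest product, at mean cycle numbers of 18.1 and above, detected 54 to 63 assays. The mean difference was -1.77 assays (SE 1.15, permutation p = 0.131, adjusted p = 0.183).

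**Figure D4:**
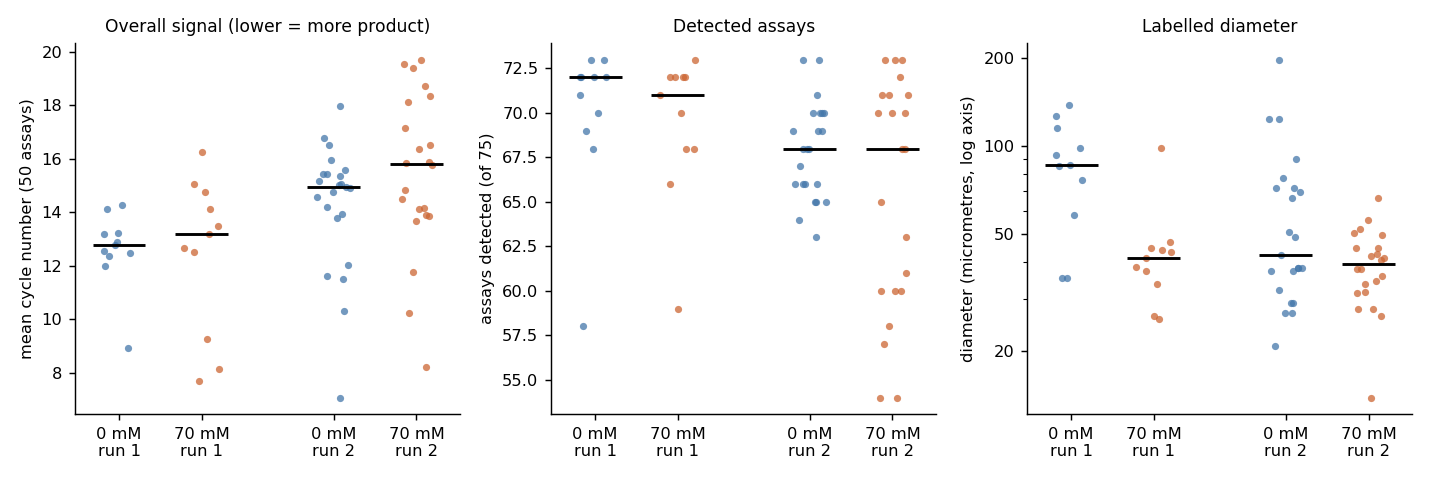
Mean cycle number over 50 assays, number of detected assays of 75 and labelled diameter in micrometres (log axis) of each Set-A neurosphere, by dose and run; points are neurospheres and bars are medians. Cycle numbers overlap between doses. At 70 mM they pass the 0 mM range at both ends in run 1 and at the late end in run 2. Detected assays overlap, with a longer low tail at 70 mM in run 2. The largest labelled diameters are at 0 mM.

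The labelled diameters were smaller at 70 mM. In run 1 they were 35.3, 86.1 and 137.9 µm at 0 mM (lowest, median and highest) and 25.6, 41.5 and 98.2 µm at 70 mM. In run 2 they were 20.7, 42.5 and 197 µm at 0 mM and 13.8, 39.4 and 66.4 µm at 70 mM. Of the unexposed neurospheres, 4 in run 1 and 8 in run 2 were larger than every exposed one of their run. The difference was -0.60 on the log2 scale (SE 0.16, permutation p = 0.000480, adjusted p = 0.00336), a ratio of geometric means of 0.661. The ratio was 0.519 in run 1 and 0.745 in run 2.

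The diameter labels of the doses sit on different coarse grids within a shared finer grid. All 34 diameters at 0 mM were whole multiples of 1.0371 µm within 0.001 µm. Of the 33 at 70 mM, 7 lay on that grid, whereas 31 were multiples of 0.6914 µm and all 33 of 0.3457 µm. A multiple of 1.0371 µm is also a multiple of 0.3457 µm, so all diameters of both doses lie on that finer grid. The grids of 1.0371 and 0.6914 µm stand in a ratio of 1.5, and the sources used here do not say whether the images share a scale. Counted in steps of 1.0371 µm at 0 mM and 0.6914 µm at 70 mM, a step shared by at least 90% of each dose and chosen after seeing the diameters, the log2 difference was -0.01 (permutation p = 0.941). The largest step that all diameters of a dose share was 1.0371 µm at 0 mM and 0.3457 µm at 70 mM. Counted in these, the difference was 0.99 (permutation p = 1.00e-05, the smallest that the resamples can give). Unlike steps add a constant to the log2 diameters of a dose, so both differences and their p-values follow from the steps chosen. The step of 0.3457 µm, which both doses share, leaves the labelled difference unchanged. Dose and the coarse grid of the diameter label cannot be told apart here, and the size groups S, M and L of the labels follow the same diameters.

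**Figure D5:**
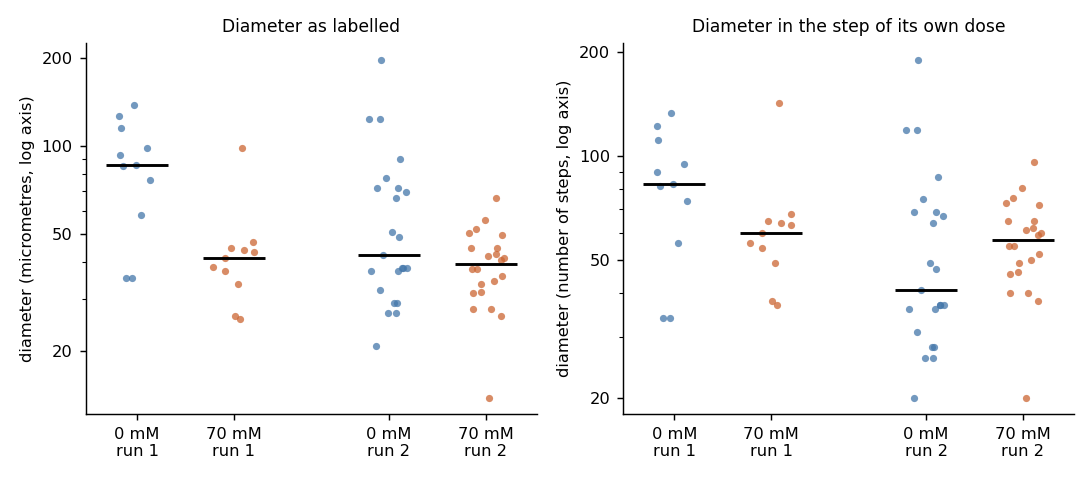
Diameter of each Set-A neurosphere as labelled in micrometres (left) and as a number of grid steps of 1.0371 µm at 0 mM and 0.6914 µm at 70 mM (right), on log axes, by dose and run; points are neurospheres and bars are medians. The exposed median is lower in both runs on the left, and on the right it is lower in run 1 and higher in run 2.

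A038 and A025 also passed in the fits that used the labelled size. Whether the images share a scale is not stated, so these fits cannot show that the changes hold at equal size. With log2 diameter as a covariate, A038 changed by 2.15 (SE 0.33, limma adjusted p = 5.39e-07) and A025 by 2.47 (SE 0.33, limma adjusted p = 2.18e-08). Among the 29 neurospheres of size group M, 10 at 0 mM and 19 at 70 mM, the changes were 2.00 (SE 0.47) and 2.47 (SE 0.55), each with limma adjusted p = 0.00554. Of these neurospheres, run 1 held 2 at 0 mM and 7 at 70 mM, and run 2 held 8 and 12. Mean cycle number showed no relation to log2 diameter that passed a permutation test within any run and dose. Pearson r was -0.14 and -0.04 at 0 and 70 mM in run 1 and 0.08 and -0.15 in run 2, with adjusted p = 0.916 for each of the 4. Spearman rho was -0.10, -0.18, 0.00 and -0.13 in the same order, with permutation adjusted p = 0.996 for each. Without the 2 neurospheres farthest from the median diameter, r was -0.29, -0.56, 0.04 and -0.05.

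The spread between neurospheres was compared as the mean distance from the median of the own run and dose. For mean cycle number this distance was 1.32 cycles at 0 mM and 2.24 at 70 mM. The larger spread at 70 mM, by 0.92 (SE 0.44, permutation p = 0.0371), did not pass after adjustment over the 7 measures (adjusted p = 0.0649). For log2 diameter as labelled the distance fell from 0.60 to 0.34, a difference of -0.27 (SE 0.11, permutation p = 0.0146, adjusted p = 0.0342). The spread along the principal component differed by 0.22 (permutation p = 0.748). Of the 72 assays, 0 (0%) differed in the spread of their relative level by limma, where 7 were larger and 1 smaller at an unadjusted p under 0.05 and the lowest adjusted p was 0.416. The spread was larger at 70 mM for 54 assays and smaller for 18, with a median difference of 0.15 log2 units.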

How the data were processed

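Cycle numbers (Ct) of 75 coded assays were deposited without normalization, per the file headers; per the labels' protocols they came from the instrument's analysis software. The sources used here give no software version, primer efficiency or reason for missing values. All columns of the table matched a sample. Relative levels were computed from the 50 assays detected in at least 95% of the 264 neurospheres, and the 72 assays detected in at least 50% entered limma 3.58.1 (R 4.3.3). Whole-neurosphere measures were compared by permuting dose within run 100000 times, two-sided, in Python 3.11.15 and numpy 2.4.6 (exact enumeration for size group M). Their differences, and those in detection share, were taken within each run and combined with weights set by the numbers of neurospheres. Named assays passed limma at adjusted p under 0.05, moved the same way in each run, and had detection in at least 95% of the 67 neurospheres and the largest change, at most 2 in each direction; 2 that rose and 1 that fell met this. No depth stands behind a cycle number, so precision is the spread between neurospheres. The comparison, the assays and the tests were chosen with earlier results of these data known. The tests were tried on these data with dose labels shuffled and known changes put in, and the outcomes are not given here. The alternatives were other centring, filters, subsets, covariates and tests.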

Additional observations from a re-analysis of the deposited data

Results flagged for a closer look

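The 70 mM change differed between Set-A and Set-B for 34 of 72 assays by the limma test of the difference itself. Among the named assays, the change of A038 was higher in Set-A by 1.39 log2 units and that of A025 differed by -2.57, lower in Set-A. Without centring the A038 difference turned to -1.86 (SE 1.08, limma adjusted p = 0.0964) and with centring on the median it was 0.69 (limma adjusted p = 0.291), whereas that of A025 was -5.80 and -3.29. Set-A and Set-B shared run 1 and were otherwise measured in separate runs, 2 and 3. In run 1 alone, which held both sets, 29 assays differed between the sets, of which 22 were among the 34. There the A038 difference was 1.22 (limma adjusted p = 0.379) and that of A025 was -3.09 (limma adjusted p = 0.000529). The part of run and culture in these differences was not tested beyond that.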

How the results depend on the processing

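Of the settings tried for the count of changed assays, 4 moved it from 18 by more than 1.5 times: 5 assays without centring, 10 among assays detected in at least 95%, 11 in size group M and 9 in run 1 alone. The other settings gave 12 to 25. Without centring, 63 assays differed between the culture sets. Detection gave 0 calls in run 1 alone and 0 in size group M by the exact Mantel-Haenszel test, both with 0 at an unadjusted p under 0.05. In run 1 alone the mean cycle number changed by -0.16, the principal component by 2.20, the spread of mean cycle number by 1.27 (permutation p = 0.0759) and that of log2 diameter by -0.15 (permutation p = 0.404). In run 2 alone the spread of mean cycle number differed by 0.75 (permutation p = 0.189) and that of the component by -0.10. In the shared range of mean cycle number, added after seeing the data, the number of detected assays differed by 0.69. The component without centring differed by 2.95 (permutation p = 0.452). Log2 diameter differed by 0.079 in size group M, -0.012 in the step of at least 90% of a dose and 0.99 in the step of all. The values in steps follow from the steps chosen. The causes were not tested. A038 and A025 passed under 17 of 18 alternatives each, A034 under 13 of 18 and A045 under 15 of 17. These assays were chosen because they passed the main test, so the counts are no separate evidence. A038 and A025 were detected in all 67 neurospheres, so settings for missing values or detection filters could not alter their estimates. Well labels are shared by 33 pairs across doses, of which 6 had a correlation over 0.1 (median -0.22). Whether paired wells share more than a label was not tested. With the well label as a replicate block, 17 assays were called, 17 of them among the 18. Cycle numbers carry no counts, so the number of neurospheres and the single culture set limit precision.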
